A study of Mus musculus with 5 samples.

Results

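The cells described here were chosen by a gate for mature Ccr7/Fscn1 dendritic cells of the atherosclerotic mouse aortic arch, and numbered 107 of the 18260 cells in 5 droplet single-cell RNA libraries. They are called mature cells as the name of this gate, which not every member bore out. Members were chosen by transcripts. The deposited value of a gene is the natural log of 1 plus its unique molecular identifiers (UMIs, counted transcripts) per 10000 UMIs of the cell, a scale called CP10K before the log. A member had H2-Ab1 above 2 on the log scale, equal to 6.39 CP10K, and at least 2 of the 4 genes Ccr7, Ccl22, Fscn1 and Tbc1d4 above 0. It also had C1qa at no more than 2 and Cd3e, Cd79a and Cdh5 at 0, which left out cells with high complement, T-cell, B-cell or endothelial transcripts. By the labels, 2 libraries came from Oasl1+/+Apoe-/- mice (Apoe-/- libraries) and 3 from Oasl1-/-Apoe-/- mice. Both genotypes lacked Apoe, whose loss makes mice prone to atherosclerosis, and were kept on normal chow for 28 weeks. Live cells of the arch were sorted by DAPI exclusion from mice that were pooled (n = 6, with no statement whether per library or per genotype), so no value belongs to a single animal. The Oasl1-/- allele was made by deleting the promoter and exon 2 in the whole animal, and littermates served as controls.

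Libraries stood apart from their labels in one respect that touches every direction drawn between them. Over all cells, Oasl1 transcripts numbered 27 and 16 in the Apoe-/- replicates. They numbered 299, 257 and 315 in the replicates with the Oasl1-/-Apoe-/- label. A tag near the 3′ end lies outside the deleted stretch, so it does not show whether that stretch was present. The deletion also took the promoter, and why the counts ran in this direction was not tested. The genotype names therefore rest on the labels alone, and these 3 are written as the labelled libraries. The libraries held 3212 to 4338 cells with median depths of 4495 to 5186.5 UMIs a cell. Of the barcodes, 165 occurred in more than 1 library, and 2 mature cells carried such a barcode, with 0 pairs of mature cells sharing one.

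Dendritic cells sample antigen in tissues and present it to T cells. On maturation they lower uptake, raise costimulatory molecules and gain the chemokine receptor Ccr7, which guides them along Ccl19 and Ccl21 into lymphatic vessels and lymph nodes. Fscn1 (fascin) bundles actin in their dendrites, Ccl22 is a chemokine for T cells that bear Ccr4, and Tbc1d4 is a Rab GTPase-activating protein. In tumours and lymph nodes, cells of this kind also carry regulatory molecules such as Cd274 (PD-L1) and Cd200, and they may arise from either conventional subset. Cd209a (DC-SIGN related lectin) marks conventional type 2 and monocyte-derived dendritic cells, which were taken as the comparison: 175 cells with Cd209a above 0 and H2-Ab1 above 2 that were not mature.

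The 107 mature cells made up 0.586% of all cells (Wilson 95% interval 0.485 to 0.708%) and 3.81% of the 2812 cells with H2-Ab1 above 2 (3.16 to 4.58%). Of all cells they formed 0.27% and 0.715% of the Apoe-/- libraries (11 and 31 cells). In the labelled libraries they formed 0.793%, 0.592% and 0.589% (27, 19 and 19 cells). The lowest and the second highest of these shares came from the same genotype, so the genotypes overlapped. Of cells with H2-Ab1 above 2, the shares were 3.04% and 7.89% against 3.79%, 2.94% and 2.72%, with Apoe-/- replicate 2 above the others. Since 3 libraries held fewer than 20 mature cells, no genotype was tested, and intervals cover counting error only.

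**Figure D1:**
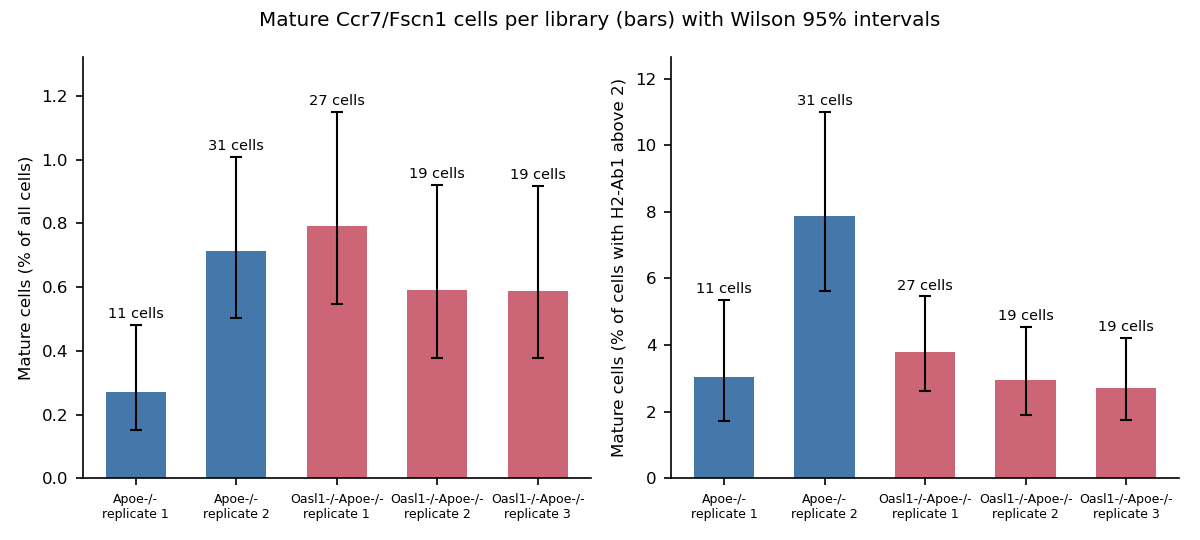
Mature cells as a percentage of all cells (left) and of cells with H2-Ab1 above 2 (right) in each library, with blue bars for Apoe-/- and red bars for labelled libraries and error bars for Wilson 95% intervals of counting error. Apoe-/- replicate 1 was lowest on the left at 0.27%, and Apoe-/- replicate 2 was highest on the right at 7.89%.

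The genes of the gate describe the members and were not tested. Per library, in the order Apoe-/- replicates 1 and 2 and then labelled replicates 1, 2 and 3, mean Ccr7 was 31.4, 23.6, 28.6, 37.5 and 39.5 CP10K in mature cells. It was 0.419, 0.528, 1.12, 0.661 and 0.4 CP10K in Cd209a+ cells. Fscn1 was the least even of the 4 genes over libraries, at 28.8, 5.02, 5.03, 10.2 and 10.6 CP10K, and gave 365 UMIs in mature and 0 in Cd209a+ cells. Ccl22 averaged 5.88 ± 2.25 CP10K (SD, n = 5 libraries) and Tbc1d4 6.65 ± 0.907 CP10K. H2-Ab1, the beta chain of the I-A class II molecule, averaged 148 ± 37.3 CP10K in mature and 172 ± 15.3 CP10K in Cd209a+ cells and their library ranges overlapped. In smooth muscle cells with high Myh11, which should lack these genes, 0.129% of cells had a Ccr7 UMI, 0.0199% Ccl22, 0.517% Fscn1 and 0.596% Tbc1d4. Median depth was 4499 UMIs in mature, 5088 in Cd209a+ and 4942 in these smooth muscle cells.

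The 4 marker genes were not present together in most members. Of the 107 cells, 103 had a Ccr7 UMI, 88 Tbc1d4, 60 Ccl22 and 38 Fscn1. The most frequent combinations were Ccr7 with Tbc1d4 alone (29 cells), Ccr7 with Ccl22 and Tbc1d4 (21 cells) and all 4 genes (19 cells). The gate turned on counts of 1 UMI in many cells: 51 members had exactly 2 of the 4 genes, while 113 other cells that met every remaining condition had 1 and 562 had 0. A further 23 cells failed on H2-Ab1 alone, 18 of them with H2-Ab1 at 0, and 6 failed on C1qa alone. Members' own H2-Ab1 ran from 2.24 to 5.86 on the natural log scale with a median of 5.1. Cd209a was found in 25 members. Of the 69 members without Fscn1, 25 had a Cd209a UMI. The cut at 2 of 4 genes may have admitted other cells with high H2-Ab1 and Ccr7, and which cells these were was not tested.

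Genes of mature dendritic cells that the gate did not use were mostly higher in the members. Such genes were taken from a list of 12, of which 10 had enough transcripts to test against the Cd209a+ cells, and 9 were higher and 0 lower, while over all 2242 genes tested 11.3% were higher and 13.5% lower. The 9 were Ccl5, Il4i1, Cacnb3, Samsn1, Relb, Socs2, Cd200, Flt3 and Cd83. Of these, Ccl5, Il4i1, Cacnb3, Socs2 and Cd200 averaged under 0.5 CP10K, the limit for testing, in Cd209a+ cells. They could be tested only through the mature cells, so the count leans to higher genes. Dpp4, a dipeptidase of migrating dendritic cells, was at 0.478 against 0.544 CP10K (log2 difference -0.13), and Nudt17 and Zbtb46 were below the limit for testing. Samsn1, an adaptor that dampens B-cell signalling, was at 5.85 ± 2.2 against 0.89 ± 0.382 CP10K (2.16, adjusted p = 5.21e-06 by limma with Benjamini-Hochberg adjustment). Cacnb3 had 73 UMIs in 33 mature cells and 1 UMI in the Cd209a+ cells. Nudt17 had a UMI in 19 mature cells and 1 Cd209a+ cell.

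Lymphoid, mast-cell and lymphatic markers were at or near 0 in the members, while some monocyte, macrophage and smooth muscle transcripts were present. Low T-cell, B-cell and endothelial values follow in part from the gate, which required Cd3e, Cd79a and Cdh5 at 0. NK-cell (Ncr1, Klrb1c, Gzma), mast-cell (Cpa3, Cma1) and lymphatic endothelial markers (Lyve1, Prox1, Ccl21a) were all listed at 0, and 3 cells had any of 4 T-cell markers and 1 any of 3 B-cell markers. The 6 macrophage markers summed to 1.94 ± 0.904 CP10K in mature (1.19 to 3.49 over libraries), 7.98 ± 6.07 in Cd209a+ and 152 ± 11.7 CP10K in cells with high C1qa, and 40 of 107 mature cells had any of them. The 4 monocyte markers summed to 6.69 ± 4.2 CP10K in mature (1.94 to 13.4) and 27.4 ± 14.7 in Cd209a+ cells (10.8 to 38.9), in both mostly Plac8. These monocyte transcripts moved with the comparison, and their part in the genes that were lower in mature cells was not tested. Smooth muscle markers summed to 4.37 CP10K (0.908 to 15.9) in mature cells, of which 54 had any, and 5.38 CP10K (1.11 to 13.8) in Cd209a+ cells. Xcr1 had 1 UMI and Clec9a 2 UMIs in all mature cells, and the 7 type 1 markers summed to 7.19 CP10K (4.43 to 10.5) against 2.72 CP10K, mostly Irf8. The lists for neutrophils, endothelial cells, fibroblasts, plasmacytoid dendritic cells, innate lymphoid cells and red cells summed to 0.0404 to 1.05 CP10K in mature cells.

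The chemokine Ccl5 and the lipid carrier Fabp5 had the largest positive differences in mature cells, and the chemokine Ccl4 and lysozyme (Lyz2) the largest negative ones. Each library gave 1 mean for its mature and 1 for its Cd209a+ cells, and log2(mean CP10K + 0.5) was compared by limma with library as a block. Of 2242 genes with a mean of at least 0.5 CP10K, 556 (24.8%) passed a Benjamini-Hochberg adjusted p of 0.05, 254 higher and 302 lower, with a median log2 difference of -0.1. At an unadjusted p under 0.05, 807 genes (36.0%) differed. A gene averaging under 0.5 CP10K in 1 set could be tested only through its level in the other set. Counts over such genes, in the lists below as well, therefore lean to genes that differ. Both sets were gated on transcripts of the same libraries, so genes that accompany the gate genes differ in part through the gate, and p-values measure the spread between libraries of pooled mice. Without labelled replicate 2 the lower genes numbered 190 and all calls 362, and without labelled replicate 3 the lower genes numbered 199. With each cell thinned to 1000 UMIs the counts were 107 higher and 101 lower. Against the 162 Cd209a+ cells that met the exclusions of the gate, 244 genes were higher and 310 lower.

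**Figure D2:**
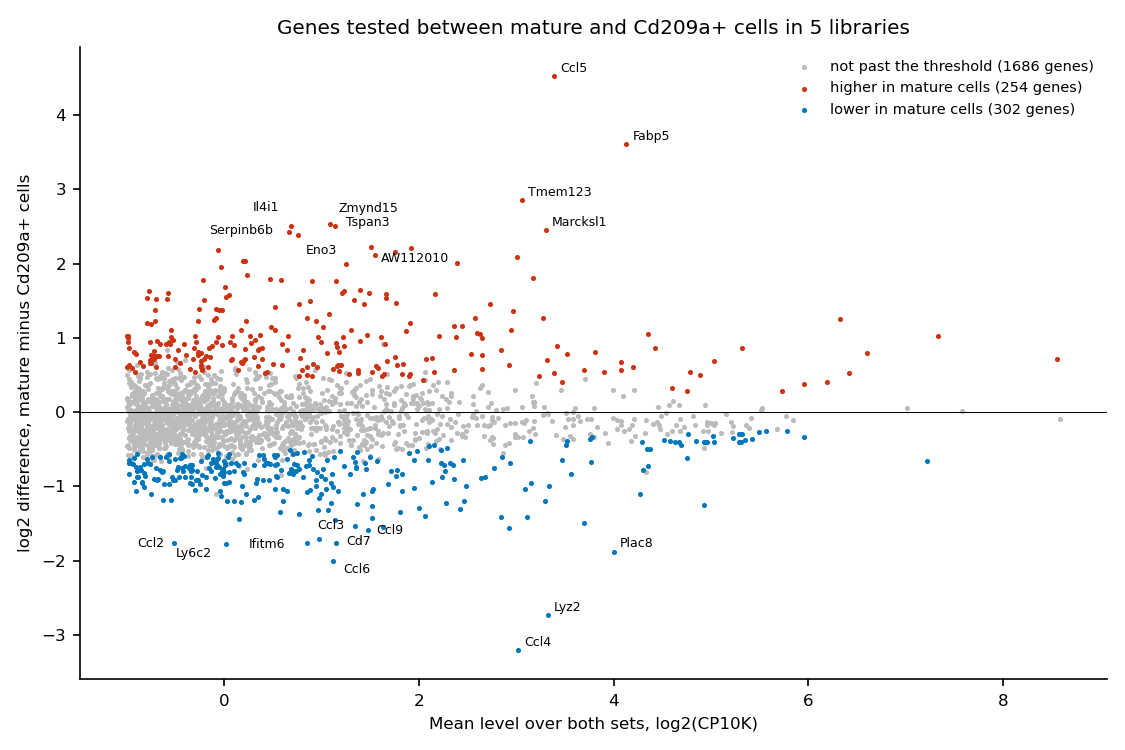
Each point is a tested gene, with its mean level over both sets on the x axis, log2(CP10K), and its log2 difference, mature minus Cd209a+ cells, on the y axis. Red marks the 254 genes that were higher and blue the 302 that were lower, with Ccl5 (4.53) at the top and Ccl4 (-3.21) at the bottom.

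Ccl5 (RANTES), a chemokine for T cells and monocytes, showed the largest difference of all genes tested. The gene (ENSMUSG00000035042) lies on the minus strand at chr11:83525778-83530518 of GRCm38. In mature cells it was at 27.0, 10.2, 11.8, 15.9 and 37.9 CP10K, and in Cd209a+ cells at 1.37, 0, 0.598, 0.125 and 0.0348 CP10K. The sets did not overlap, as for 15.7% of all genes tested, and the log2 difference was 4.53 ± 0.293 (SE, adjusted p = 2.75e-06). It was not a gene of all members, since 39 of 107 mature cells and 6 of 175 Cd209a+ cells had a UMI. In cells with high C1qa it averaged 2.29 ± 1.66 CP10K.

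Fabp5, an intracellular fatty acid carrier, came next with a log2 difference of 3.61 ± 0.358 (adjusted p = 3e-05). Mature cells held 73.4, 24.0, 17.1, 15.3 and 34.4 CP10K and Cd209a+ cells 1.36, 0.386, 1.99, 2.73 and 4.42 CP10K, without overlap. Apoe-/- replicate 1, with 11 mature cells, was the highest. Fabp5 was also abundant in cells with high C1qa (26.3 ± 18.1 CP10K). Tmem123, a membrane receptor linked to cell death, was at 15.2 ± 7.62 against 1.48 ± 0.204 CP10K (2.85 ± 0.237). Of the 15 genes with the largest positive differences, the remaining ones included Zmynd15 (2.53), Tspan3 (2.50, a tetraspanin), Serpinb6b (2.42, a protease inhibitor), Eno3 (2.38, an enolase) and the non-coding transcript AW112010 (2.22). Zmynd15, Tspan3 and AW112010 did not pass when the members with a Fscn1 UMI were left out, and AW112010 also did not pass among members with a Ptprc UMI.

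**Figure D3:**
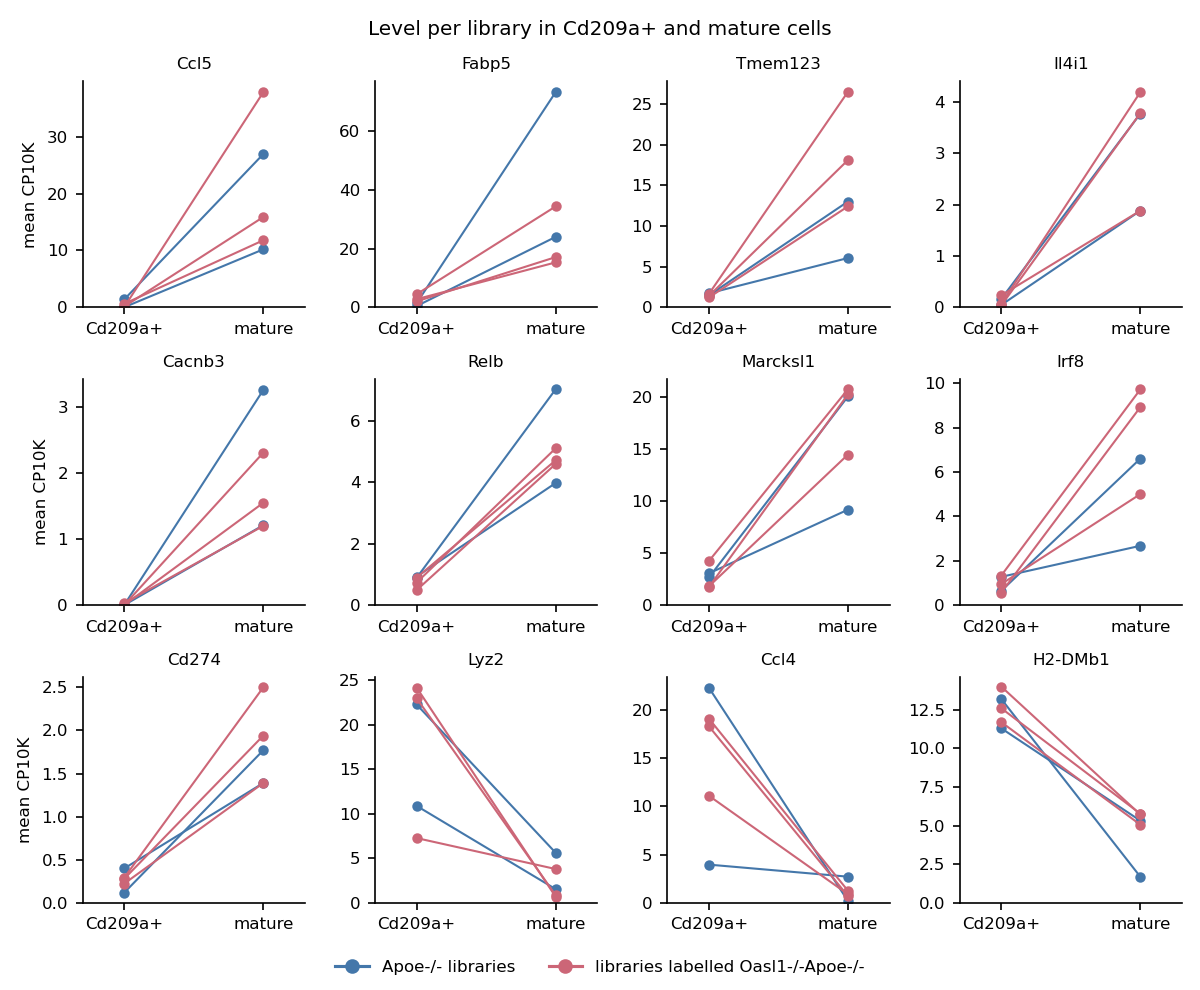
Mean level in CP10K of 12 genes in Cd209a+ and mature cells, 1 line per library, blue for Apoe-/- and red for labelled libraries. For Ccl5, Fabp5 and Relb every library was higher in mature cells, and for Lyz2, Ccl4 and H2-DMb1 every library was lower.

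Receptors and motility genes were divided. Of 23 listed, with Ccr7 and Fscn1 among them, 17 were tested, of which 6 were higher and 3 lower, with a median difference of -0.04 against -0.1 for all genes. Marcksl1, a protein that ties actin to the membrane, was at 20.1, 9.19, 14.5, 20.8 and 20.3 CP10K in mature and 2.66, 3.05, 1.8, 4.24 and 1.73 CP10K in Cd209a+ cells. The sets did not overlap and the difference was 2.45 ± 0.208 (adjusted p = 1.02e-05). Its relative Marcks differed by 2.0 (4.08 ± 0.673 against 0.667 ± 0.305 CP10K), the tetraspanin Cd63 by 2.01, Basp1 by 1.36 and the myosin Myo1g by 1.14. Gpr183, an oxysterol receptor that positions dendritic cells, was higher by 0.9, a call lost when 3 of the 5 libraries were left out one at a time. The monocyte chemokine receptor Ccr2 was lower by 1.44 on the log2 scale, at 0.348 ± 0.105 against 1.87 ± 0.625 CP10K. The integrin chain Itgb7 (-1.34) and coronin Coro1a (-0.65) were lower as well. Cxcr4, a further homing receptor, was at 1.04 ± 0.643 against 1.01 ± 0.226 CP10K and did not pass.

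Chemokines other than Ccl22 went both ways. Of 17 listed, Ccl22 among them, 12 were tested: Ccl5, Cxcl16 and Ccl17 were higher, and Ccl2, Ccl3, Ccl4, Ccl6 and Ccl9 lower, with a median difference of -0.81, the same with Ccl2 at its limit. Ccl4, an inflammatory chemokine, was at 0.194, 2.71, 0.703, 1.25 and 0.892 CP10K in mature and 22.3, 3.96, 18.3, 19.1 and 11.1 CP10K in Cd209a+ cells. Every library was lower in mature cells, by the least in Apoe-/- replicate 2, and the log2 difference was -3.21 ± 0.446 (adjusted p = 0.000275). Ccl2, the ligand of Ccr2, had 0 UMIs in mature and 124 in Cd209a+ cells, at least 23.1-fold lower with a floor of 3 UMIs over the set. Ccl6 (-2.0), Ccl3 (-1.71) and Ccl9 (-1.59) were lower too. Cxcl16, a membrane-bound chemokine and scavenger of oxidized lipid, was higher at 14.0 ± 4.36 against 5.36 ± 0.994 CP10K (1.27 ± 0.162). Ccl17, which shares the receptor of Ccl22, was higher by 1.14 ± 0.315 (adjusted p = 0.0196) but was at 0.0818 CP10K in labelled replicate 2, under the Cd209a+ cells there (0.231), and lost the call in 8 of 21 alternatives. Ccl8, Cxcl2, Cxcl9 and Cxcl10 did not pass (-1.1, 0.41, 0.83 and -0.51), and Ccl19 was listed at 0 in both sets.

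Costimulatory genes were higher in mature cells more often than not. Of 9 genes tested of 13, 6 were higher and 1 lower, with a median of 0.54, the same with Tnfrsf9 at its limit. Tnfrsf9, Icam1 and Cd80 averaged under 0.5 CP10K in Cd209a+ cells and could be tested only through the mature cells. Tnfrsf9 (4-1BB) had 53 UMIs in mature and 0 in Cd209a+ cells, at least 31.6-fold higher, and a UMI in 20 mature cells. Cd40, the receptor by which T cells license dendritic cells, was at 1.57 ± 0.482 against 0.542 ± 0.339 CP10K (1.02, adjusted p = 0.00271). The adhesion molecule Icam1 was higher by 0.91, Cd80 by 0.79 and Cd83, which stabilizes class II at the surface, by 0.54. Cd86, the second ligand of Cd28 and Ctla4, was at 4.51 ± 0.952 against 2.97 ± 0.206 CP10K (0.51, adjusted p = 0.0439), lower in mature cells of Apoe-/- replicate 1 and past the threshold in only 8 of 21 alternatives. Cd48, a ligand of Cd244, was lower (-1.05). Tnfrsf4 (OX40) was not tested, with a UMI in 9 mature cells and 1 Cd209a+ cell.

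Genes that restrain T cells or limit dendritic cell signalling were higher in mature cells in most cases that could be tested. Of 17 listed, 8 were tested, of which 5 were higher and 0 lower, with a median of 1.04. Il4i1, Cd274, Socs2 and Cd200 averaged 0.0727 to 0.262 CP10K in Cd209a+ cells, under the 0.5 CP10K needed for testing. They could be tested only through the mature cells, so the list's counts lean to higher genes through the filter. Il4i1, a secreted amino acid oxidase that depletes phenylalanine and tryptophan, was at 3.77, 1.88, 1.88, 4.19 and 3.78 CP10K in mature and 0.162, 0.044, 0.23, 0.0661 and 0.0352 CP10K in Cd209a+ cells. The sets were far apart in all 5 libraries, with a difference of 2.51 ± 0.223 (adjusted p = 1.52e-05). Cd274 (PD-L1), the ligand of Pdcd1, was at 1.39, 1.77, 2.5, 1.94 and 1.39 CP10K in mature and 0.399, 0.118, 0.292, 0.279 and 0.223 CP10K in Cd209a+ cells. These did not overlap either (1.58 ± 0.194, adjusted p = 0.000125), and 50 of 107 mature cells had a UMI. Socs2, an inhibitor of cytokine signalling, differed by 1.78 and Cd200, a ligand that quiets myeloid cells, by 1.51. Il1rn, described with the cytokines, was the fifth. Of those with too few transcripts to test, Pdcd1lg2 (PD-L2) had a UMI in 23 mature and 5 Cd209a+ cells, Fas in 23 and 10, and Socs1 in 22 and 11. Ido1 was listed at 0 in both sets.

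Among 25 cytokines and receptors, 11 were tested, 2 of them higher and 2 lower, close to the 11.3% and 13.5% of all genes tested, with a median of -0.33, the same with Il12b at its limit. Il12b, which encodes the p40 chain of interleukin-12 and interleukin-23, had 86 UMIs in 14 mature cells and 0 in Cd209a+ cells, at least 51.2-fold higher. It was at 5.92, 0.939, 2.24, 2.3 and 0 CP10K in mature cells, so 4 of the 5 libraries carried it. The partner chains Il12a and Il23a were listed at 0 in mature cells. Il1rn, the interleukin-1 receptor antagonist, was higher by 0.58 and lost the call in 13 of 21 alternatives. The interferon-gamma receptor chain Ifngr1 (-1.1) and Tgfb1 (-0.77) were lower. Il1b was abundant in both sets, at 27.8 CP10K in mature and 33.0 CP10K in Cd209a+ cells (-0.48), and did not pass. Il2ra (CD25) was not tested, with 19 UMIs in mature and 0 in Cd209a+ cells, at least 11.3-fold higher.

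The NF-kB and survival list had the largest number of higher genes. Of 19 tested of 20, 14 were higher and 0 lower, with a median of 0.93 against -0.1 over all genes. Relb, the transcription factor of the non-canonical arm, was at 7.02, 3.97, 5.1, 4.71 and 4.59 CP10K in mature and 0.882, 0.926, 0.729, 0.887 and 0.484 CP10K in Cd209a+ cells. The lowest mature value lay above the highest Cd209a+ value, and the difference was 2.11 ± 0.172 (adjusted p = 8.89e-06). Its partner Nfkb2 (p100/p52) was higher by 1.11 ± 0.174, the kinase Map3k14 (NIK) that starts this arm by 1.11 and Traf1, an adaptor of TNF receptors, by 1.27. Birc2, an inhibitor of apoptosis that degrades NIK, was higher by 1.19, and its relative Birc3 by 0.66, a call lost in 6 of 21 alternatives. Cflar, an inhibitor of caspase-8, was higher by 0.85. Of the canonical arm, Rel was higher by 1.01 ± 0.155, whereas Rela (0.15) and Nfkb1 (-0.01) did not pass. The inhibitors Nfkbia (27.9 ± 5.43 against 13.1 ± 1.8 CP10K, 1.05) and Nfkbib (0.93) were higher. Tnfaip3 (A20), which ends the signal, was higher by 0.57 (adjusted p = 0.0312) and Tnip3, which binds it, by 0.62. They lost the call in 10 and 8 of 21 alternatives, and Tnip3 was at -0.41 with the Fscn1 cells alone. The survival genes Bcl2a1b (2.09) and Bcl2a1d (1.59) were higher, but they are near-identical copies between which reads may have been split.

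The 250 bases before the RefSeq starts of these genes were searched on both strands for the κB motif, with overlapping matches counted separately. The table held at least 1 such sequence for 206 of the 254 higher genes, and 19.9% of these had a match. The share was 10.2% of 245 lower genes, 11.2% of 1768 genes tested and 8.23% of all 27025 genes in the table. Of the 14 higher NF-kB genes 13 were in the table and 5 had a match (Nfkb2, Nfkbia, Rel, Tnfaip3 and Tnip3). Relb and Ccr7 had no entry. These shares were not tested. The sequences of 4 of them are shown because they are the subunits and inhibitors just described, 5′ to 3′ on the gene's strand from RefSeq on GRCm38.p6, with κB matches in capitals. For Nfkb2 and Tnfaip3, which have several entries, the one with the most matches is given.
Nfkb2, chr19:46304487-46304736, plus strand: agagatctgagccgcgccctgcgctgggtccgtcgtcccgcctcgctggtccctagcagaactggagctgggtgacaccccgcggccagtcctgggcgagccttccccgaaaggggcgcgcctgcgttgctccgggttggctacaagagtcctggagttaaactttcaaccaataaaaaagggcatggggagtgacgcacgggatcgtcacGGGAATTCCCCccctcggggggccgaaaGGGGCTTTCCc
Rel, chr11:23770970-23771219, minus strand: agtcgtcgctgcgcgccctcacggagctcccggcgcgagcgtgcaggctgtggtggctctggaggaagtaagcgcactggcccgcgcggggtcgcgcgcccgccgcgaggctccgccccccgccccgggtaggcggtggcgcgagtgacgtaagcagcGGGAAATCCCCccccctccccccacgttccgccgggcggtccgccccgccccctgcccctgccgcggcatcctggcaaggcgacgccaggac
Nfkbia, chr12:55492648-55492897, minus strand: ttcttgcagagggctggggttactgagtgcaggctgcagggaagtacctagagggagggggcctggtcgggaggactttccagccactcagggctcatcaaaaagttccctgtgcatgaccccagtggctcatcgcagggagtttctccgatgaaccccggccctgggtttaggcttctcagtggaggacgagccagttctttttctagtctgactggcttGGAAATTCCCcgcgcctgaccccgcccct
Tnfaip3, chr10:19015411-19015660, minus strand: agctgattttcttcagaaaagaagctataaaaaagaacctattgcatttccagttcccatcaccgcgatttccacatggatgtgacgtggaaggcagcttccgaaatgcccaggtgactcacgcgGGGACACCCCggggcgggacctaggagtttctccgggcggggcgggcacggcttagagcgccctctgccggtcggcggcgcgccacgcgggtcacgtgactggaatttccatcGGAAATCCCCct
In Nfkb2 the capitals hold 3 matches, of which 2 overlap, in Rel 2 overlapping matches, in Tnfaip3 2 and in Nfkbia 1. A match is a string of letters and was not a measured site.

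Transcription factors and growth factor receptors of dendritic cells were next, with 6 of 11 tested genes higher and 1 lower (median 0.69). Irf8, which specifies type 1 dendritic cells and is kept in many mature ones, was at 6.6, 2.67, 9.72, 8.92 and 5.0 CP10K in mature and 0.639, 1.27, 1.33, 0.56 and 0.944 CP10K in Cd209a+ cells. The sets did not overlap (2.21 ± 0.265, adjusted p = 0.000107), although cells with high C1qa held 3.14 ± 0.297 CP10K. Id2, an inhibitor of helix-loop-helix factors needed for dendritic cell development, was at 14.3 ± 4.22 against 3.7 ± 0.987 CP10K (1.8). Etv3, a repressor of the Ets family, was higher by 1.45, Stat3 by 0.73 and Nfil3, a factor of type 1 development, by 0.74, a call lost in 9 of 21 alternatives. Stat3 was at -0.09 with the members without Fscn1 alone. Flt3, the receptor for the dendritic cell growth factor Flt3l, was higher by 0.69 (adjusted p = 0.0363) and lost the call in 8 of 21 alternatives. Csf1r, the macrophage growth factor receptor, was lower (-1.01). Batf3, a type 1 factor, was at 0.937 against 0.4 CP10K (0.59) and did not pass.

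Genes of the conventional subsets were lower or did not pass in mature cells, apart from Irf8. Of the type 1 list 5 of 12 were tested: Irf8 was higher, Naaa (-0.9) and Ppt1 (-0.78), both lysosomal enzymes, were lower, and Batf3 and Cd24a did not pass. Naaa and Ppt1 averaged 0.308 and 0.414 CP10K in mature cells, under the limit for testing. They could be tested only through the Cd209a+ cells. Naaa lost the call in 4 of 20 alternatives and Ppt1 in 6 of 21. Of the type 2 list 5 of 9 were tested, with 0 higher and 2 lower. The lectin Clec10a was lower at 1.13 ± 0.912 against 3.28 ± 0.725 CP10K (-1.45, adjusted p = 0.00747) and lost the call in 5 of 21 alternatives, and Cd7 was lower by 1.76 on the log2 scale. Mgl2 (1.14 against 1.87 CP10K) and Sirpa (0.757 against 0.912 CP10K) did not pass. Cd209a chose the comparison cells, so its own values, 2.47 ± 2.63 against 17.3 ± 3.83 CP10K, are a description.

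The class II genes themselves did not pass, while the genes of the peptide exchange factor that loads them were lower in mature cells, apart from H2-DMb2. H2-Aa was at 194 against 189 CP10K, H2-Eb1 at 132 against 126 and the invariant chain Cd74 at 376 against 395 CP10K, and none of the 3 passed. H2-DMb1, a chain of the peptide exchange factor, was at 1.69, 5.32, 5.06, 5.72 and 5.77 CP10K in mature and 13.2, 11.3, 11.7, 14.0 and 12.6 CP10K in Cd209a+ cells. All mature values were under all Cd209a+ values (-1.42 ± 0.21, adjusted p = 0.000417). Its partner H2-DMa was at 5.99 ± 1.31 against 11.8 ± 0.711 CP10K (-0.95), and the protease Ctss, which trims the invariant chain, was lower (-0.5). H2-DMb2, the second DM beta gene, was higher (0.71, adjusted p = 0.0188), a call lost in 8 of 21 alternatives. In all 11 of 15 genes were tested, 1 higher and 3 lower, with a median of -0.09.

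The class I pathway was higher in 7 of 13 tested genes and lower in 2, with a median of 0.41. The heavy chain H2-K1 was at 17.9 ± 1.69 against 10.1 ± 1.74 CP10K (0.81, adjusted p = 0.000322) and H2-D1 was higher by 0.5. Psme2, a subunit of the proteasome activator PA28, was at 10.0 ± 2.46 against 3.3 ± 0.697 CP10K (1.46), and the immunoproteasome subunits Psmb8 (0.89) and Psmb9 (0.74) were higher. B2m, the class I light chain (0.38), and Tapbp, which loads class I (0.51), passed and lost the call in 8 and 11 of 21 alternatives, B2m with a value of -0.01 without the Fscn1 cells. The chaperones Calr and Pdia3 were lower by 0.65 each on the log2 scale, calls lost in 7 and 6 of 21 alternatives. Calr was higher in mature cells of Apoe-/- replicate 2, at 5.75 against 4.7 CP10K. The peptide transporters Tap1 (0.26) and Tap2 (0.25) did not pass.

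**Figure D4:**
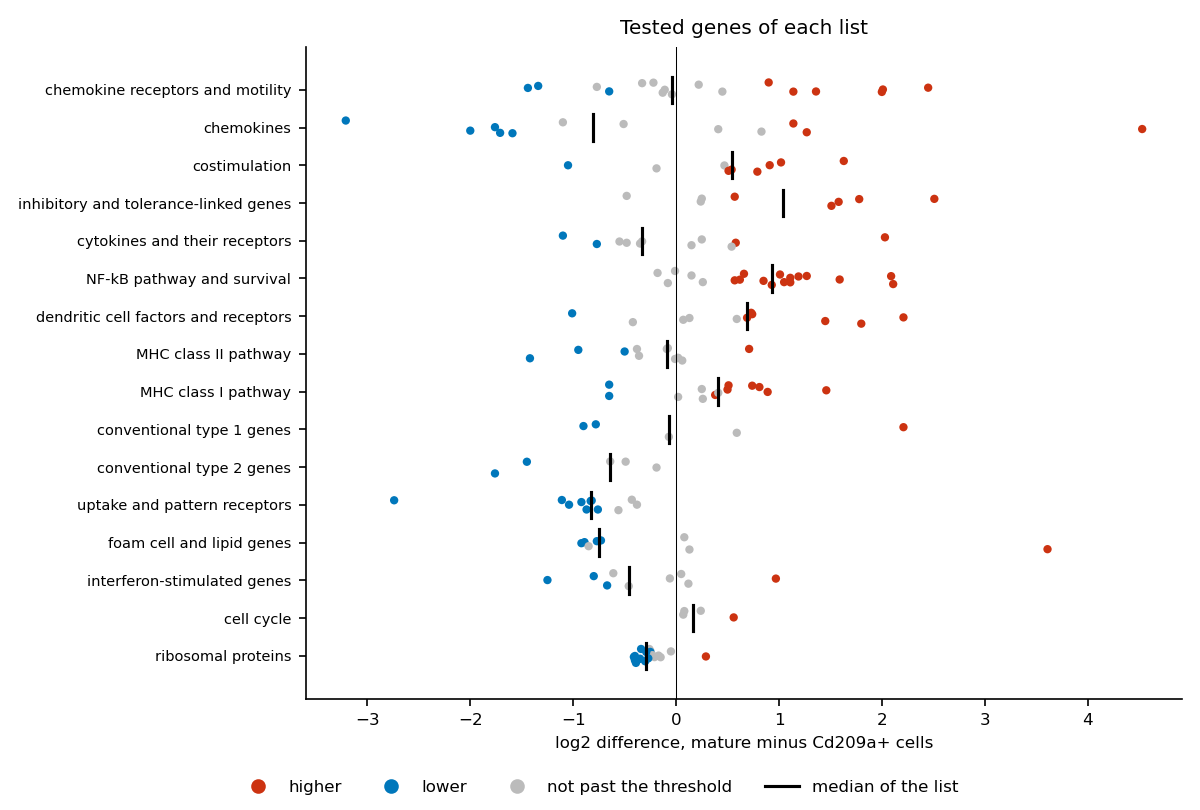
Log2 difference, mature minus Cd209a+ cells, of every tested gene of 16 lists, 1 point per gene (vertical spread within a list is random), with red for higher, blue for lower, grey for genes not past the threshold and a black bar for the list's median. The NF-kB list had 14 of 19 points in red, and the uptake list 8 of 11 in blue.

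Uptake and pattern receptors were lower where they passed. Of 11 tested of 20, 8 were lower and 0 higher, with a median of -0.83. Fcgr1, Fcgr3, Clec4a2 and Tlr2 averaged under 0.5 CP10K in mature cells and could be tested only through the Cd209a+ cells. Lyz2, the lysozyme of monocytes and macrophages, was at 5.63, 1.54, 0.695, 3.8 and 0.858 CP10K in mature and 22.3, 10.9, 24.2, 7.28 and 23 CP10K in Cd209a+ cells, without overlap (-2.74 ± 0.394, adjusted p = 0.000345). Fcer1g, the signalling chain shared by Fc receptors, was at 12.4 ± 3.91 against 26.1 ± 1.88 CP10K (-1.11). The Fc receptors Fcgr1 (-0.92), Fcgr2b (-0.82) and Fcgr3 (-0.87), the lysosomal Cd68 (-1.04), the lectin Clec4a2 (-0.83) and Tlr2 (-0.76) were lower. Tlr2 lost the call in 13 of 21 alternatives. The mannose receptor Mrc1 had 0 UMIs in mature and 18 in Cd209a+ cells, at least 3.36-fold lower. Plac8 and Ly6c2, genes of monocytes, were among the 15 with the largest negative differences (-1.88 and -1.78), as were Alox5ap (-1.56), which activates 5-lipoxygenase, and Ifitm6 (-1.77). Zfp36l2 (-1.55), an RNA-binding protein, Cd300c2 (-1.54), a myeloid receptor, and Fxyd5 (-1.49) completed these 15. Plac8 and Ccl3 overlapped between the sets over all libraries, though each library was lower in mature cells.

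Genes of foamy macrophages were lower in mature cells or did not pass, other than Fabp5. Of 8 tested of 20, Fabp5 was higher and Ctsb (-0.89), Ctsd (-0.92), Lgals3 (-0.73) and the lipid-droplet gene Plin2 (-0.77) were lower, with a median of -0.75. Ctsb, Ctsd and Lgals3 lost the call in 5, 4 and 5 of 21 alternatives. In mature cells of labelled replicate 1 Lgals3 was higher, at 28.3 against 25.7 CP10K. The gate limited C1qa in mature but not in Cd209a+ cells, and its part in these calls was not tested. Trem2 had a UMI in 1 mature cell, Gpnmb in 2, Lpl in 2 and Abca1 in 7, against 1394, 727, 860 and 881 of the 1808 cells with high C1qa. The lists of cell cycle and ribosomal protein genes completed the comparison. Mki67 and Top2a had a UMI in 3 mature cells each, and of 4 cell-cycle genes tested Tubb5, a tubulin, was higher by 0.56. It lost the call in 12 of 21 alternatives and was at -0.15 among members with a Ptprc UMI and -0.05 among those without Fscn1. Of 23 ribosomal protein genes 14 were lower and 1 higher, with a median of -0.29 and differences from -0.41 to 0.29.

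Interferon-stimulated genes were tested in 9 of 16 cases, and 3 were lower. Ifitm3 (-1.25), Ifi27l2a (-0.67) and Rsad2 (-0.8) were lower, Rsad2 with the call lost in 10 of 21 alternatives, while Isg15 (-0.06), Irf7 (-0.46) and Bst2 (0.12) did not pass. Values of several of these within the mature cells are given by library as a description, without a test. Ifi27l2a was at 1.4 and 2.65 CP10K in the Apoe-/- and at 13.9, 16.4 and 21.7 CP10K in the labelled libraries. Ifitm3 was at 5.81 and 15.6 against 18.6, 20.9 and 35.5 CP10K, and Bst2 at 2.29 and 2.82 against 4.91, 5.42 and 5.08 CP10K. For these 3 genes all labelled libraries were above both Apoe-/- libraries. Isg15 was at 0.397 and 2.32 against 8.97, 2.58 and 8.28 CP10K, with Apoe-/- replicate 2 close to labelled replicate 2. Oasl1 itself had 0 and 1 UMIs in mature cells of the Apoe-/- and 10, 5 and 6 in those of the labelled libraries. The same order held in Cd209a+ cells for Ifi27l2a, at 3.17 and 5.67 against 21.2, 24.4 and 26.0 CP10K. It held there for Ifitm3 (31.8 and 29.5 against 41.7, 51.9 and 52.7 CP10K) and Bst2 (2.22 and 2.22 against 4.08, 4.85 and 5.62 CP10K), and over all cells for all 3.

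The members were also described by Fscn1. A split into 38 cells with a Fscn1 UMI and 69 without was made after the values were seen and its values are given as a description. Where a gene follows Fscn1, it follows 1 of the 4 genes that chose the members. The 38 cells came as 6, 8, 8, 8 and 8 from the libraries, and the 69 as 5, 23, 19, 11 and 11, so Apoe-/- replicate 2 held the most cells without Fscn1. Median depth was lower in cells with Fscn1 (3920 against 4790 UMIs), and its part in the split was not tested. Cells with Fscn1 carried Cacnb3, a calcium channel subunit, at 4.47 ± 0.953 CP10K against 0.259 ± 0.367 (SD over 5 libraries), and 29 of 38 had a UMI against 4 of 69. Cd200 was at 3.46 ± 1.48 against 0.337 ± 0.704, Nudt17 at 1.97 ± 0.797 against 0.131 ± 0.198 and Socs2 at 3.42 ± 1.78 against 0.434 ± 0.257 CP10K. For Cacnb3, Cd200, Nudt17 and Socs2 the library ranges of the 2 groups did not meet.

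Other genes of the mature set were higher on the Fscn1 side as well. Relb was at 8.67 ± 1.14 against 2.78 ± 0.946 CP10K, Marcksl1 at 29.4 ± 2.59 against 9.04 ± 3.99, Psme2 at 17.3 ± 2.29 against 5.86 ± 2.34 and Ccr7, a gate gene, at 52.4 ± 11.3 against 20.4 ± 6.7 CP10K. Fabp5 was at 62.0 ± 34.8 against 12.9 ± 8.02 CP10K and Il4i1 at 5.73 ± 2.14 against 1.46 ± 0.982 CP10K. Ccl5 was found in 28 of the 38 cells and in 11 of the 69, and Il12b in 10 and 4. All 9 cells with Tnfrsf4 had Fscn1.

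The cells without Fscn1 kept more of the genes of the comparison set. Cd209a was found in 25 of the 69 and in 0 of the 38, Clec10a in 26 and 0, and the chemokine receptor Ccr1 in 26 and 0. Fcer1g was at 18.0 ± 5.13 against 2.98 ± 1.86 CP10K, the lipopolysaccharide coreceptor Cd14 at 4.53 ± 1.84 against 0.062 ± 0.139 and the decoy receptor Il1r2 at 9.5 ± 5.18 against 0.816 ± 1.11 CP10K. H2-DMb1 was at 6.83 ± 2.03 against 1.2 ± 1.3 CP10K and H2-Ab1 at 186 ± 34.1 against 81.1 ± 26.4 CP10K. Cd83 (19.0 ± 2.96 against 17.4 ± 6.88 CP10K) and Cd86 (4.64 ± 1.12 against 4.41 ± 1.06 CP10K) had overlapping library ranges on both sides.

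**Figure D5:**
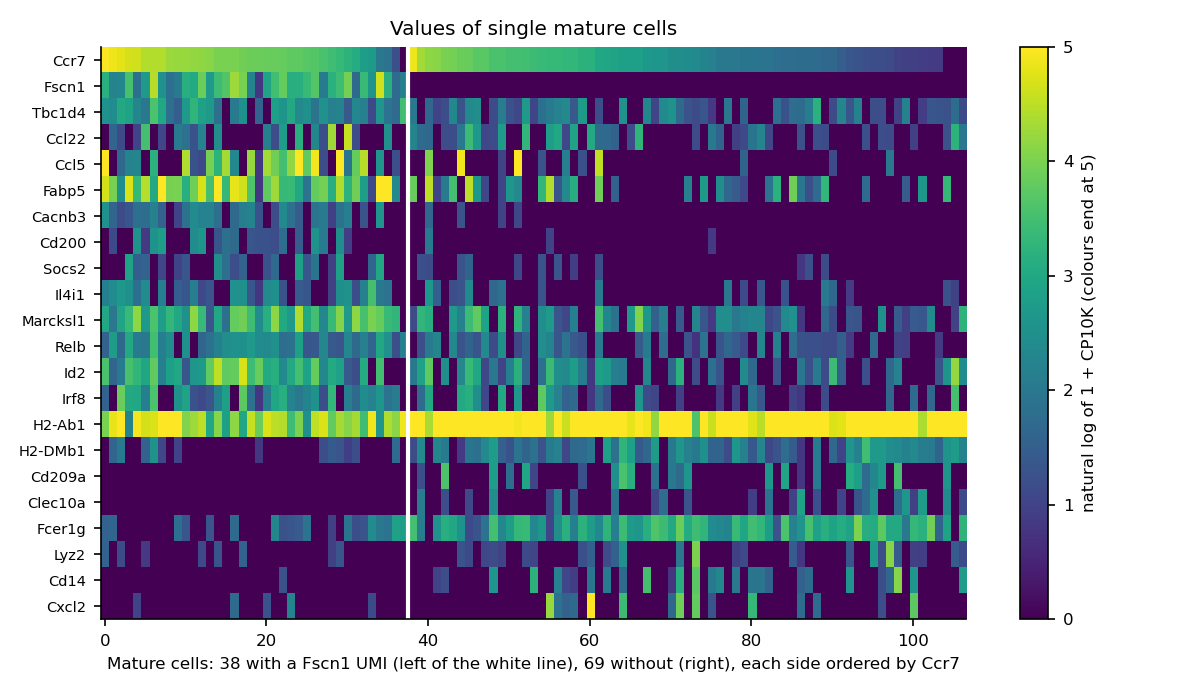
Deposited values (natural log of 1 + CP10K, colours end at 5) of 22 genes in each of the 107 mature cells, 38 with a Fscn1 UMI left of the white line and 69 without right of it, each side ordered by Ccr7. Cacnb3 and Cd200 lie mostly on the left, and Cd209a, Clec10a, Cd14 and most Cxcl2 on the right.

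The counts against Cd209a+ cells are given for both sides as alternatives chosen after seeing the data, and since Fscn1 was part of the gate they describe the split and do not test it. With the 38 Fscn1 cells alone, 304 genes were higher and 414 lower. With the 69 others alone, 45 were higher and 41 lower, and 84 of the 509 genes of the full comparison that could still be tested passed in that direction. Ccl5, Fabp5, Tmem123, Il4i1, Marcksl1, Relb, Rel, Nfkbia, Ccl4 and Lyz2 passed with 1 direction in both fits. Irf8 (1.37), Cd274 (0.89), Fcer1g (-0.58) and Clec10a (-1.1) did not pass in cells without Fscn1.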

How the data were processed

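The authors aligned 10x 3′ libraries with Cell Ranger 3.1.0 to mm10, filtered cells by gene count and mitochondrial share in Seurat 4.0.3, removed doublets with DoubletFinder and deposited 1 table of 16498 genes by 18260 cells. Its values are the natural log of 1 + UMIs per 10000 UMIs of the cell, as normalized by the authors. Whole UMIs were recovered in 100% of cells (tolerance 0.01 UMI). Genes seen in very few cells of a library were mostly 0 throughout it, so genes at 0 in a set are called listed at 0. Among them, Ccl19, Ido1, Il12a, Gzma, Klrb1c and Lyve1 had a UMI in some cells of every library. For these genes the 0 of a set was a count. Groups came from the labels.

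Mature and Cd209a+ cells were averaged per library as CP10K. log2(mean + 0.5) was compared by limma 3.58.1 in R 4.3.3 with trend and library as a block, for genes with a mean of at least 0.5 CP10K over the 10 means, with Benjamini-Hochberg adjustment at 0.05. This understates changes of low genes. The 9 gate genes and Cd209a were left out. The test was checked on simulated data. The text names the gate genes, genes of the lists, and the 15 past the threshold with the largest differences in each direction and 1 sign in every library; the rest were chosen after their values were seen. The members and lists were chosen with earlier results of these data known. The study's own test over cells was not used, since cells are not replicates. Intervals are Wilson 95%. Coordinates are GENCODE vM21 (GRCm38). The alternatives are given in the closing section. Some items are not reported here.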

Additional observations from a re-analysis of the deposited data

Results flagged for a closer look

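Of 189 genes looked at, 7 (3.7%) had differences between mature and Cd209a+ cells that took one sign in both Apoe-/- libraries and the other in all 3 labelled libraries, as did 92 (4.1%) of all 2242 genes tested. None of the 7 was past the threshold over all 5 libraries, and the difference between genotypes was not tested. The labelled minus Apoe-/- gap in the log2 difference was 1.76 for Cd14 (mean -1.49 in the Apoe-/- and 0.27 in the labelled libraries), 1.37 for the Nectin-like receptor Pvr (-0.57 and 0.8), 0.75 for the interferon-stimulated Xaf1 (-0.4 and 0.35) and 0.54 for Socs3 (-0.09 and 0.45). It was -1.22 for H2-Ob, a chain of the class II modulator (0.72 and -0.49), -0.65 for the cholesterol carrier Npc2 (0.47 and -0.18) and -0.62 for the proteasome subunit Psmb10 (0.4 and -0.22). Apoe-/- replicate 1 entered each of these with 11 mature cells.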

How the results depend on the processing

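Of the 254 higher and 302 lower genes (556 in all), thinning each cell to 1000 UMIs gave 107 and 101 (208 in all), of which 196 were shared with the 530 that could still be tested. Members with a Ptprc UMI, in 4 libraries, gave 108 and 109 (217). Members without a Fscn1 UMI, an alternative chosen after seeing the data, gave 45 and 41 (86). Leaving out 1 library at a time gave 362 to 516 genes, 172 to 232 higher and 190 to 284 lower. Requiring 1 of the 4 markers gave 220 mature cells and requiring 3 gave 56, while other limits on H2-Ab1 or C1qa gave 95 to 110. With the 56 cells, 289 genes were higher and 429 lower. The other offsets, filters and summaries gave 220 to 303 higher and 225 to 380 lower genes, and centring on the median gene, chosen after seeing the data, 262 and 267. Fscn1 cells alone gave 304 and 414. The share of higher genes among calls ran from 39.2 to 53.3%. Of 118 named genes, 39 passed with their sign kept in every alternative in which they could be tested. Of the 21 alternatives, Tnfrsf9 could be tested in 17, Ccl2, Il12b and Socs2 in 19, and Birc2 and Cacnb3 in 20. Among the named genes, signs turned for Tubb5 with Ptprc (-0.15) and for Tnip3 with Fscn1 (-0.41). Without Fscn1 they turned for B2m (-0.01), Stat3 (-0.09) and Tubb5 (-0.05). Among all calls that could still be tested, signs turned for 8 after thinning, 3 with Ptprc, 1 with Fscn1 and 11 without Fscn1. Against the Cd209a+ cells that met the exclusions of the gate, 1 turned. Where the sets of cells or libraries were smaller, fewer cells or libraries entered the fit by construction, and any further cause was not tested. The comparison of the 2 cell sets paired them within each library, and without this library block 222 genes were higher and 251 lower. For genotype, whose groups share replicate numbers: No paired analysis was possible because genotype was not tested, with fewer than 20 mature cells in 3 libraries. At 11 to 31 mature cells a library, genes with few UMIs could not be tested.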
